A study of Mus musculus with 18 samples.

Results

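The genes described here are 31 interferon-stimulated genes, the targets of type I and type II interferon and the regulators of that response, chosen by symbol from the 35667 genes of the deposited count table. All 31 symbols were found. The table covers 18 mouse libraries of bulk RNA made with the Smart-seq2 protocol, 3 for each of 6 groups. Hepatic stellate cells (HSC), the retinoid-storing pericytes of the liver, were isolated from healthy wild-type mice, and intrahepatic cholangiocyte organoids (ICO), which grow from bile duct epithelium, carried the fluorescent tag dTomato. The groups were HSC after 7 days in Matrigel together with ICO (co-culture), HSC after 7 days in Matrigel alone, HSC after 7 days alone on plastic, HSC on day 0 directly after isolation, ICO sorted from the co-culture on day 7, and ICO after 7 days in Matrigel alone. The stated medium, the same for all groups, held serum, the growth factors EGF, HGF and FGF10, RSPO3, gastrin, nicotinamide, N-acetylcysteine and the supplements N2 and B27, and no group is labelled as given interferon. Age, sex and the number of mice or organoid lines are not stated. P-values therefore measure only the spread between these libraries, which may be technical.

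Type I and type III interferons signal through the kinases Jak1 and Tyk2 to a complex that holds Stat2 and Irf9 and binds the interferon-stimulated response element (ISRE) upstream of genes such as Ifit1, Isg15 and Mx2. Type II interferon signals through Jak1 and Jak2 to the gamma-activated site (GAS) upstream of genes such as Irf1, and Irf1 in turn drives the guanylate-binding proteins and the immunoproteasome. In liver, stellate cells, sinusoidal endothelium and Kupffer cells all carry the receptors, and interferon gamma is known to restrain stellate cell activation.

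Of the 31 genes, 24 had a promoter entry in RefSeq (GRCm38.p6). The 250 bases before the start were searched on both strands for the ISRE core (GAAA, any 2 bases, GAAA) and the GAS motif (TTC, any 3 bases, GAA). The ISRE core was in 11 of the 24 genes (Bst2, Gbp2, Gbp3, Ifit1, Ifit3, Igtp, Irgm1, Isg15, Oas1a, Rsad2 and Stat2), against 3.46% of all 27025 genes with an entry. The GAS motif was in 7 of the 24 (Bst2, Ifit2, Igtp, Irf1, Irf8, Oas1a and Psmb8), against 8.13% of all genes. Counted over the 32851 promoters, the shares were 2.98% for the ISRE core and 7.02% for the GAS motif. Mx1, Mx2, Zbp1, Rtp4, Usp18, Parp9 and Parp14 had no entry. A match describes letters in this window and does not show binding.
The windows below hold the motifs, in capitals, with 15 flanking bases where the promoter allowed, and read 5′ to 3′ along the strand of the gene. The first 5 belong to genes that fell in co-cultured HSC, and show ISRE cores read on either strand and a GAS motif without an ISRE core (Irf1).
Ifit1: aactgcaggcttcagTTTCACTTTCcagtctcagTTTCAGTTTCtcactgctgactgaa
Ifit3: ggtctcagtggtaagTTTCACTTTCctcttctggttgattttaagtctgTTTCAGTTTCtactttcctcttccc
Igtp: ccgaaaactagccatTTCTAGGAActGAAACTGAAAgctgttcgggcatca
Irgm1: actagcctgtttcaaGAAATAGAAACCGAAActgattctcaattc
Irf1: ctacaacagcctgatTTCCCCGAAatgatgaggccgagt
The next 3 belong to genes that rose in co-cultured HSC, and show an ISRE core in each, with a GAS motif beside it in Bst2.
Isg15: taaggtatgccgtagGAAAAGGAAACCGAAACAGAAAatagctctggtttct
Bst2: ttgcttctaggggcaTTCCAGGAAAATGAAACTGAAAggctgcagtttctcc
Gbp2: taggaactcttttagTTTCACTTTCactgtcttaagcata
The windows lie at Ifit1 chr19:34640770-34640828 (plus strand), Ifit3 chr19:34583358-34583431 (plus strand), Igtp chr11:58199496-58199546 (plus strand), Irgm1 chr11:48871421-48871465 (minus strand), Irf1 chr11:53769909-53769947 (plus strand), Isg15 chr4:156200860-156200911 (minus strand), Bst2 chr8:71537572-71537623 (minus strand) and Gbp2 chr3:142620589-142620628 (plus strand). In Bst2 the GAS motif and the first ISRE core overlap, and the 3 ISRE cores of Isg15 overlap each other. Igtp holds a GAS motif and an ISRE core side by side.

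Estimated counts per library totalled 6907479 (HSC co-culture replicate 1) to 22158674 (HSC plastic replicate 2). The labelled cell types were checked against marker genes. The cholangiocyte share, which is the median level of 15 cholangiocyte markers relative to ICO (of the co-culture for HSC of the co-culture, otherwise of ICO alone), was 13.97% to 42.1% in the 3 HSC co-culture libraries and 31.4%, 13.4% and 3.63% in HSC Matrigel replicates 1 to 3, although HSC in Matrigel alone are labelled as mono-culture. It was at most 0.0584% on plastic and at most 0.292% on day 0. The summed level of 18 macrophage markers was 281 to 415 CPM in co-culture, 2740 to 3563 CPM in Matrigel alone, 138 to 571 CPM on plastic and 1095 to 1150 CPM on day 0, where CPM is the usual depth-scaled count, here with library sizes adjusted by TMM. Clec4f, which defines Kupffer cells, was at 0 in co-culture, at most 0.396 CPM in Matrigel alone, at 0 on plastic and at up to 248 CPM on day 0. In Matrigel alone most of the macrophage sum was Lyz2, at 1978 to 2769 CPM, against 170.1 to 177 CPM on day 0, while Cd5l (5.82 to 14.2 CPM) and Mrc1 (42.5 to 64.2 CPM) were below their day 0 levels of 101 to 116 CPM and 155 to 167 CPM. Cd68 (112 to 162 CPM) and Tyrobp (54.9 to 68.7 CPM) were above their day 0 levels of 16.0 to 23.0 CPM and 14.9 to 18.4 CPM. Of the 18 markers, 6 were called higher in Matrigel alone than on day 0 and 5 lower. Cd14 made up 103 to 209 CPM of the sum in co-cultured HSC, and ICO of the co-culture held it at 476 to 608 CPM. The 10 endothelial markers summed to 1340 to 1367 CPM on day 0 and to at most 97.4 CPM in cultured HSC, and the 10 hepatocyte markers to 16451 to 17432 CPM on day 0 and to at most 173 CPM in cultured HSC. The 10 stellate markers summed to 5255 to 8641 CPM in co-culture, 19357 to 34731 CPM in Matrigel alone, 5613 to 10293 CPM on plastic and 62346 to 71299 CPM on day 0. Most of this sum was Dcn, at 3857 to 6299 CPM in co-culture and 15069 to 27727 CPM in Matrigel alone. Of the 10 markers, 7 were called lower in co-culture than in Matrigel alone and 0 higher. Lrat was at 520 to 1018 CPM in co-culture and 377 to 632 CPM in Matrigel alone. The part of these other cells in the results below was not tested. In bulk RNA, fewer cells of a type and less RNA per cell cannot be told apart.

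**Figure D1:**
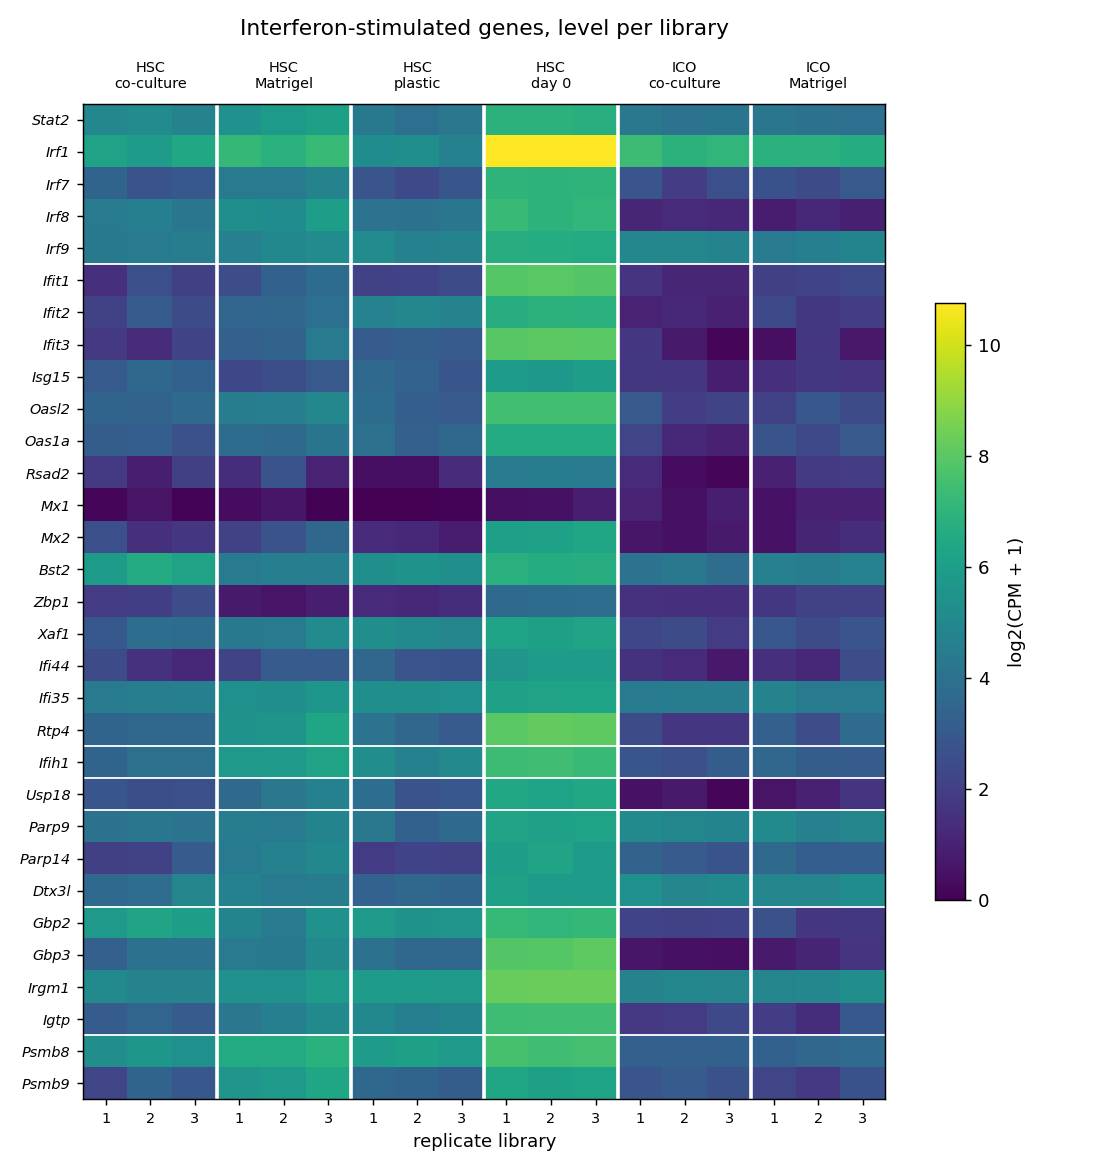
Level of each of the 31 genes (rows, grouped by role with white lines) in each of the 18 libraries (columns, 3 per group), as log2(CPM + 1) on the color scale. The 3 day 0 HSC libraries hold the highest HSC level of nearly every gene, and Mx1 is near 0 throughout. The ICO libraries hold low levels of most genes. In ICO alone, 9 genes average at least 10 CPM (Stat2, Irf1, Irf9, Bst2, Ifi35, Parp9, Dtx3l, Irgm1 and Psmb8).

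HSC after 7 days on plastic had lower levels of every tested interferon-stimulated gene than day 0 HSC. All 30 genes with enough counts fell, against 30.5% of all 17020 tested genes, and none rose, against 27.5% (called either way, 58%). The median log2 fold change was -2.85 over the 30 genes and -0.10 over all genes. Without adjustment 30 had p below 0.05, all lower, and DESeq2 called 0 higher and 31 lower. On plastic the genes stood at a median of 13.2% of their day 0 level, with Ifit1 lowest at 1.52% and Ifi35 highest at 56.0%.

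Ifit1, which binds viral RNA that lacks host cap marks, had 3.37, 3.46 and 4.45 CPM in the 3 plastic libraries, against 245, 261 and 238 CPM in the 3 day 0 libraries. Every plastic library was far below every day 0 library, with a log2 fold change of -5.98 ± 0.38 (SE, adjusted p = 1.02e-07). The transcription factor Irf1 had 36.8, 40.0 and 25.7 CPM on plastic, against 1706, 1732 and 1743 CPM on day 0. The groups did not overlap, and the change was -5.59 ± 0.23 (SE, adjusted p = 7.95e-10). Mx2, an antiviral dynamin-like GTPase, had 1.52, 1.39 and 0.782 CPM on plastic, against 66.2, 69.9 and 82.0 CPM on day 0, again without overlap and with a change of -5.81 ± 0.55 (SE, adjusted p = 2.82e-06). Ifit3, a partner of Ifit1, had 7.66, 8.45 and 7.28 CPM on plastic and 249, 264 and 260.2 CPM on day 0, a change of -4.98 ± 0.34 (SE, adjusted p = 1.6e-07). The smallest decreases were those of Ifi35 (-0.77), Xaf1 (-1.04) and Bst2 (-1.29). By role, the 5 signalling and transcription factors (Stat2, Irf1, Irf7, Irf8, Irf9) had a median of -3.01, the 14 tested antiviral effectors also -3.01, the 3 genes of the Parp9 group -2.57, the 4 GTPases -2.47 and the 2 immunoproteasome subunits -2.20.

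HSC after 7 days alone in Matrigel were also below day 0 HSC. Of 30 tested genes 29 fell, against 21.5% of all genes, and 0 rose, against 19.3% (called either way, 40.8%). DESeq2 called 29 lower and 0 higher, as did the unadjusted p below 0.05. The median change was -2.34, against 0.09 over all genes, and the genes stood at a median of 19.6% of their day 0 level. Ifit1 had 4.81, 9.30 and 12.8 CPM in Matrigel alone, against 245, 261 and 238 CPM on day 0, a change of -4.77 ± 0.35 (SE, adjusted p = 7.38e-07). Ifit3 had 8.76, 9.82 and 20.3 CPM in Matrigel alone and 249, 264 and 260.2 CPM on day 0, with no overlap and a change of -4.29 ± 0.32 (SE, adjusted p = 8.42e-07). Irf1 had 145, 115 and 152 CPM in Matrigel alone, against 1706, 1732 and 1743 CPM on day 0, and changed by -3.65 ± 0.20 (SE, adjusted p = 1.99e-08). Zbp1, a sensor of left-handed nucleic acid that can start necroptosis, had 0.735, 0.462 and 0.896 CPM in Matrigel alone and 11.8, 12.8 and 13.2 CPM on day 0, a change of -4.15 ± 0.37 (SE, adjusted p = 1.3e-06). The exception was Psmb9, a catalytic subunit of the immunoproteasome. It had 47.9, 53.7 and 80.6 CPM in Matrigel alone and 78.7, 68.2 and 74.8 CPM on day 0. These libraries overlap, and the change of -0.27 ± 0.27 (SE, adjusted p = 0.435) did not pass the threshold and was 0.084 with the cholangiocyte share as a covariate.

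Across all cultured HSC, every day 0 library lay above all 9 cultured libraries in 29 of 30 genes, against 18.2% of all tested genes, and Psmb9 was the exception. After day 0, the next highest group mean was that of Matrigel alone in 21 genes, plastic in 6 and co-culture in 3. The lowest group mean was that of co-culture in 15 genes, plastic in 11 and Matrigel alone in 4. These orders were not counted over all genes, so they describe the 30 genes only. The summed endothelial and hepatocyte markers given above were also highest on day 0 and low in all cultured HSC. Mx1 did not pass the low-count filter in the fit of the 12 HSC libraries. With no filter, and by DESeq2, all 31 genes were tested and called lower on plastic than on day 0, Mx1 among them. Its level was 0.064 to 0.465 CPM in co-culture, 0.056 to 0.593 CPM in Matrigel alone, 0 to 0.0601 CPM on plastic and 0.314 to 0.892 CPM on day 0.

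**Figure D2:**
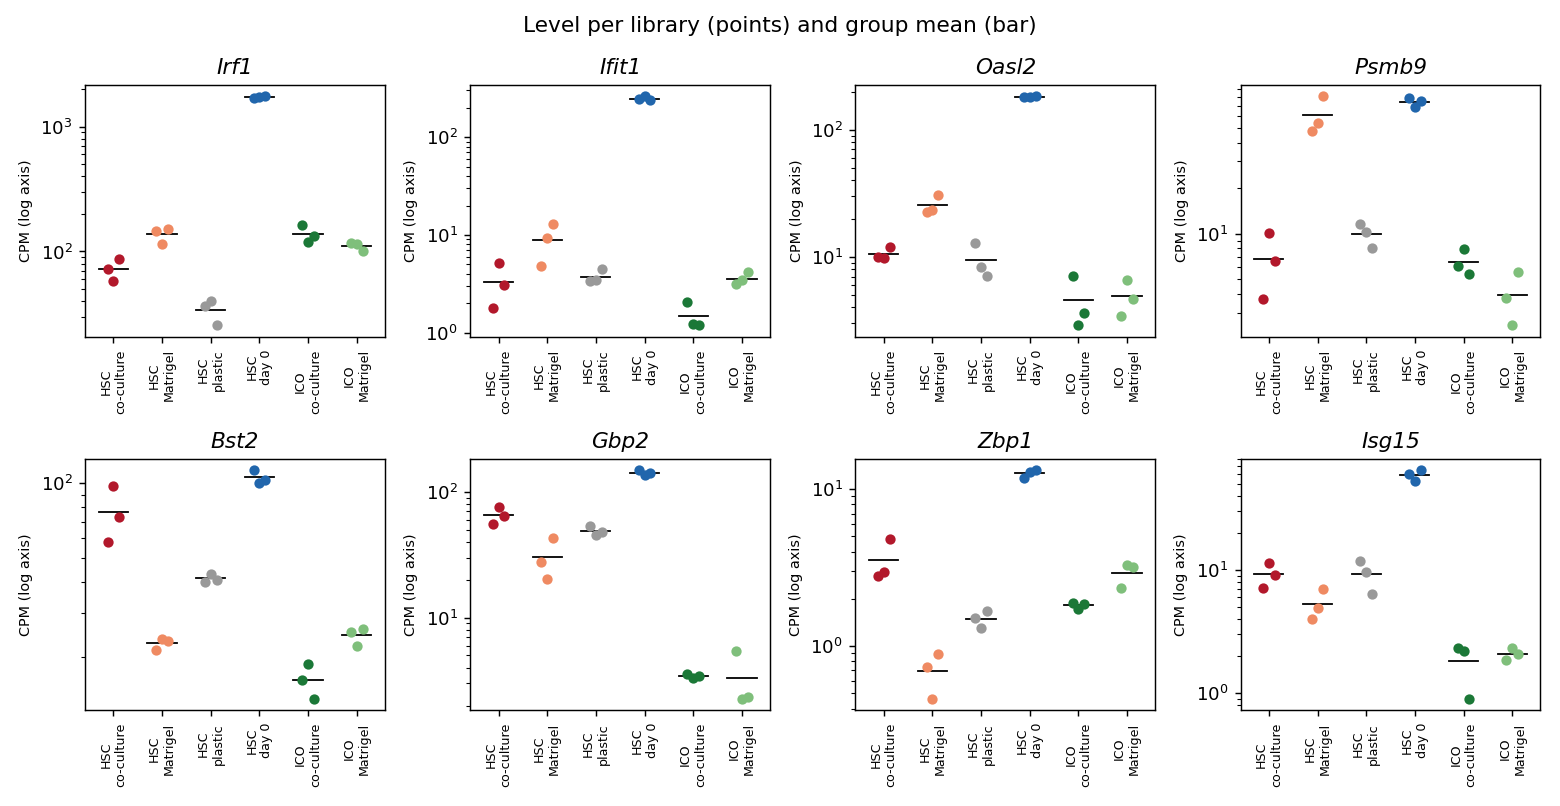
CPM on a log axis in each library (points) with the group mean (bar) for 4 genes that fell in co-cultured HSC (upper row: Irf1, Ifit1, Oasl2, Psmb9) and the 4 that rose (lower row: Bst2, Gbp2, Zbp1, Isg15). Day 0 libraries are highest in each panel except Psmb9, where they overlap with HSC in Matrigel alone.

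Between the mono-cultures, HSC in Matrigel alone held higher levels of most of the genes than HSC on plastic. Of 30 tested genes 17 rose, against 29.9% of all genes, and 6 fell, against 25.2% (called either way, 55%). The median change was 0.81, against 0.14 over all genes. Among the 5 signalling and transcription factors 4 rose, while Irf9 changed by -0.01 (adjusted p = 0.98). Both immunoproteasome subunits and all 3 genes of the Parp9 group rose, as did the RNA sensor Ifih1 and the interferon receptor brake Usp18. The 14 tested effectors were split, with 5 higher and 4 lower. Of the 4 GTPases, Gbp3 rose and Gbp2 and Irgm1 fell.

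Parp14, a mono-ADP-ribosyltransferase, had 21.1, 25.8 and 31.3 CPM in Matrigel alone, against 2.77, 3.46 and 3.25 CPM on plastic. All Matrigel libraries were above all plastic libraries, with a change of 2.98 ± 0.30 (SE, adjusted p = 4.54e-06). Psmb9 had 47.9, 53.7 and 80.6 CPM in Matrigel alone and 11.6, 10.2 and 7.999 CPM on plastic, likewise without overlap, and rose by 2.56 ± 0.29 (SE, adjusted p = 1.28e-05). Mx2 had 3.21, 5.74 and 11.5 CPM in Matrigel alone and 1.52, 1.39 and 0.782 CPM on plastic, a change of 2.42 ± 0.52 (SE, adjusted p = 0.00209). Rtp4, an antiviral chaperone of the receptor transporter family, had 43.5, 47.3 and 81.3 CPM in Matrigel alone, against 16.2, 10.7 and 7.64 CPM on plastic, and rose by 2.26 ± 0.28 (SE, adjusted p = 3.24e-05). In the other direction, Ifit2 had 10.4, 10.7 and 14.4 CPM in Matrigel alone and 26.7, 30.5 and 26.9 CPM on plastic. Its groups did not overlap, and the change was -1.29 ± 0.22 (SE, adjusted p = 0.00027). Bst2, also called tetherin, which holds budding virus at the cell surface, had 21.4, 23.5 and 23.1 CPM in Matrigel alone, against 40.2, 43.3 and 40.7 CPM on plastic, a change of -0.92 ± 0.15 (SE, adjusted p = 0.000233). The ubiquitin-like modifier Isg15 had 4.01, 4.94 and 6.94 CPM in Matrigel alone and 11.7, 9.56 and 6.44 CPM on plastic. The groups overlapped, and the change was -0.85 ± 0.26 (SE, adjusted p = 0.0135). Gbp2, a guanylate-binding GTPase, had 27.9, 20.4 and 42.6 CPM in Matrigel alone and 53.5, 45.6 and 47.8 CPM on plastic, a change of -0.74 ± 0.21 (SE, adjusted p = 0.00944). The other genes that fell were Irgm1, at -0.40 (adjusted p = 0.0311), and Zbp1, at -1.14 (adjusted p = 0.0171).

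Of these 23 calls, 16 held under every alternative run for this comparison. The call of Isg15 was lost without HSC plastic replicate 1 (adjusted p = 0.0543), that of Zbp1 without HSC Matrigel replicate 2 (0.0686), that of Parp9 without HSC plastic replicate 2 (0.0651) or HSC Matrigel replicate 3 (0.0628), and that of Usp18 without HSC plastic replicate 2 (0.0672) or 3 (0.0582) or HSC Matrigel replicate 3 (0.0707). Irgm1 lost its call without HSC plastic replicate 1 (0.0628) or 2 (0.0626) or HSC Matrigel replicate 1 (0.0842) or 2 (0.118), and Rsad2 without HSC plastic replicate 1 (0.147) or 2 (0.157) or HSC Matrigel replicate 2 (0.334). Rsad2 also lost it with no low-count filter (0.0926), the replicate block (0.0747), the cholangiocyte share as a covariate (0.212) and only the 6 libraries compared (0.0826), and in that last fit Isg15 (0.0515) and Zbp1 (0.059) were not called either. With the cholangiocyte share as a covariate 16 genes rose and 3 fell, and Isg15 (0.102), Gbp2 (0.0655) and Irgm1 (0.16) were no longer called lower. The macrophage marker sum differed in the same comparison, at 2740 to 3563 CPM in Matrigel alone and 138 to 571 CPM on plastic.

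Co-culture with organoids was compared with Matrigel alone to ask how the organoids affect stellate cells. In HSC of the co-culture most of the interferon-stimulated genes were lower. Of 30 tested genes 22 fell, against 13.8% of all tested genes, and 4 rose, against 17.3% (called either way, 31.1%). The median change was -1.10, against 0.03 over all genes. All 3 co-culture libraries lay below all 3 Matrigel libraries in 21 of the 30 genes, against 22.5% of all genes, and above them in 4, against 19.4%. Rsad2 (-0.36), Mx2 (-1.23), Parp9 (-0.48) and Dtx3l (-0.28) did not pass the threshold, and without HSC Matrigel replicate 2 the value of Rsad2 was 0.69.

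Psmb9 changed most. It had 3.71, 10.03 and 6.59 CPM in HSC of the co-culture, against 47.9, 53.7 and 80.6 CPM in HSC in Matrigel alone. The highest co-culture library was well below the lowest Matrigel library, and the log2 fold change was -3.08 ± 0.30 (SE, adjusted p = 8.16e-06). Psmb8, its partner subunit, had 39.0, 51.5 and 41.0 CPM in co-culture and 96.3, 94.1 and 116 CPM in Matrigel alone, a change of -1.18 ± 0.14 (SE, adjusted p = 3.23e-05). Parp14 had 3.07, 3.41 and 7.81 CPM in co-culture, against 21.1, 25.8 and 31.3 CPM in Matrigel alone, without overlap and with a change of -2.38 ± 0.30 (SE, adjusted p = 5.31e-05). Rtp4 had 10.1, 11.4 and 11.5 CPM in co-culture and 43.5, 47.3 and 81.3 CPM in Matrigel alone, a change of -2.34 ± 0.28 (SE, adjusted p = 6.35e-05). Ifit3 had 2.43, 1.60 and 3.65 CPM in co-culture, against 8.76, 9.82 and 20.3 CPM in Matrigel alone, where replicate 3 was highest, and it changed by -2.32 ± 0.35 (SE, adjusted p = 0.000377).

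All 5 signalling and transcription factors fell. Irf7, which amplifies the type I response, had 9.99, 5.95 and 6.91 CPM in co-culture and 20.7, 21.4 and 27.2 CPM in Matrigel alone, and it fell the most of the 5, at -1.59 ± 0.21 (SE, adjusted p = 9.98e-05). Irf8, a factor of myeloid lineages, changed by -1.12 (adjusted p = 0.00088), Irf1 by -0.88 (adjusted p = 0.00308), Stat2 by -0.79 (adjusted p = 0.00493) and Irf9 by -0.54 (adjusted p = 0.0255). Ifih1, which senses double-stranded RNA, had 9.99, 14.5 and 14.6 CPM in co-culture and 54.1, 56.3 and 72.1 CPM in Matrigel alone, a change of -2.17 ± 0.19 (SE, adjusted p = 2.15e-06). Usp18, which removes Isg15 from proteins and dampens the type I receptor, fell by 1.75 on the log2 scale. Of the 14 tested effectors 9 fell, among them Oasl2 (-1.22), Oas1a (-0.94), Ifit1 (-1.32), Ifit2 (-1.09), Xaf1 (-1.12), Ifi44 (-1.33) and Ifi35 (-0.88). Of the GTPases that act against intracellular pathogens, Igtp (-1.49), Gbp3 (-0.83) and Irgm1 (-0.60) fell.

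The 4 genes that rose were Zbp1, Bst2, Gbp2 and Isg15. Bst2 had 58.1, 98.0 and 73.1 CPM in HSC of the co-culture, against 21.4, 23.5 and 23.1 CPM in HSC in Matrigel alone. Each co-culture library was above every Matrigel and plastic library, and the change over Matrigel alone was 1.80 ± 0.16 (SE, adjusted p = 2.14e-06). Gbp2 had 55.9, 76.3 and 64.1 CPM in co-culture and 27.9, 20.4 and 42.6 CPM in Matrigel alone, without overlap, a change of 1.15 ± 0.21 (SE, adjusted p = 0.00119). Isg15 had 7.17, 11.3 and 9.15 CPM in co-culture and 4.01, 4.94 and 6.94 CPM in Matrigel alone. The groups did not overlap, although the lowest co-culture library was close to the highest Matrigel library, and the change was 0.85 ± 0.26 (SE, adjusted p = 0.0251). Zbp1, whose low level keeps it outside the rule for detailed values and which is given because so few genes rose, had 2.82, 2.95 and 4.80 CPM in co-culture and 0.735, 0.462 and 0.896 CPM in Matrigel alone, a change of 2.36 ± 0.36 (SE, adjusted p = 0.000251). In ICO of the co-culture these 4 genes stood lower than in co-cultured HSC. Their levels in these ICO were 16.1 ± 2.60 CPM for Bst2, 3.44 ± 0.115 CPM for Gbp2, 1.82 ± 0.8 CPM for Isg15 and 1.82 ± 0.0833 CPM for Zbp1 (SD, n = 3). For each of them every co-cultured HSC library lay below every day 0 library, a comparison that was not fitted. For Bst2 the groups nearly met, at 98.0 CPM in the highest co-culture library and 100.6 CPM in the lowest day 0 library. Bst2 was at 72.2% of its day 0 mean, the highest such share in co-culture of the 30 genes.

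Of the 26 calls in co-culture, 21 held under every alternative run for this comparison. Isg15 lost its call without HSC Matrigel replicate 1 (adjusted p = 0.0695) or 2 (0.0853) or HSC co-culture replicate 2 (0.0964), and Ifit1 without HSC Matrigel replicate 3 (0.0522) or HSC co-culture replicate 3 (0.0602). Gbp3 lost it without HSC Matrigel replicate 3 (0.0927) or HSC co-culture replicate 1 (0.0614). Irf9 lost it without HSC Matrigel replicate 2 (0.0697) or 3 (0.125) or HSC co-culture replicate 1 (0.0631) or 2 (0.0667), and Ifi44 without HSC Matrigel replicate 2 (0.118) or 3 (0.104) or HSC co-culture replicate 2 (0.138) or 3 (0.141). Ifi44 also lost it with the replicate block (0.061) and with no low-count filter (0.0602), and Ifi44 (0.174), Irf9 (0.127) and Gbp3 (0.0905) lost it with the cholangiocyte share as a covariate. With only the 6 libraries compared 18 genes fell and 3 rose, and Isg15 (0.143), Ifi44 (0.12), Ifit1 (0.0626), Gbp3 (0.0549) and Irf9 (0.0544) were not called. Dtx3l, which was not called, had an adjusted p of 0.00361 without HSC co-culture replicate 3, and Mx2 had 0.0372 by DESeq2, 0.0137 without HSC Matrigel replicate 1 and 0.0202 without HSC co-culture replicate 1. Without HSC Matrigel replicate 1, the mono-culture library with the highest cholangiocyte share, 23 genes fell and 3 rose. Without HSC co-culture replicate 3, the co-culture library with the highest share, 21 fell and 4 rose, and with the share as a covariate 19 fell and 4 rose. The macrophage marker sum was 281 to 415 CPM in co-culture and 2740 to 3563 CPM in Matrigel alone, a difference in the direction of most of the genes, and its part in the result was not tested.

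**Figure D3:**
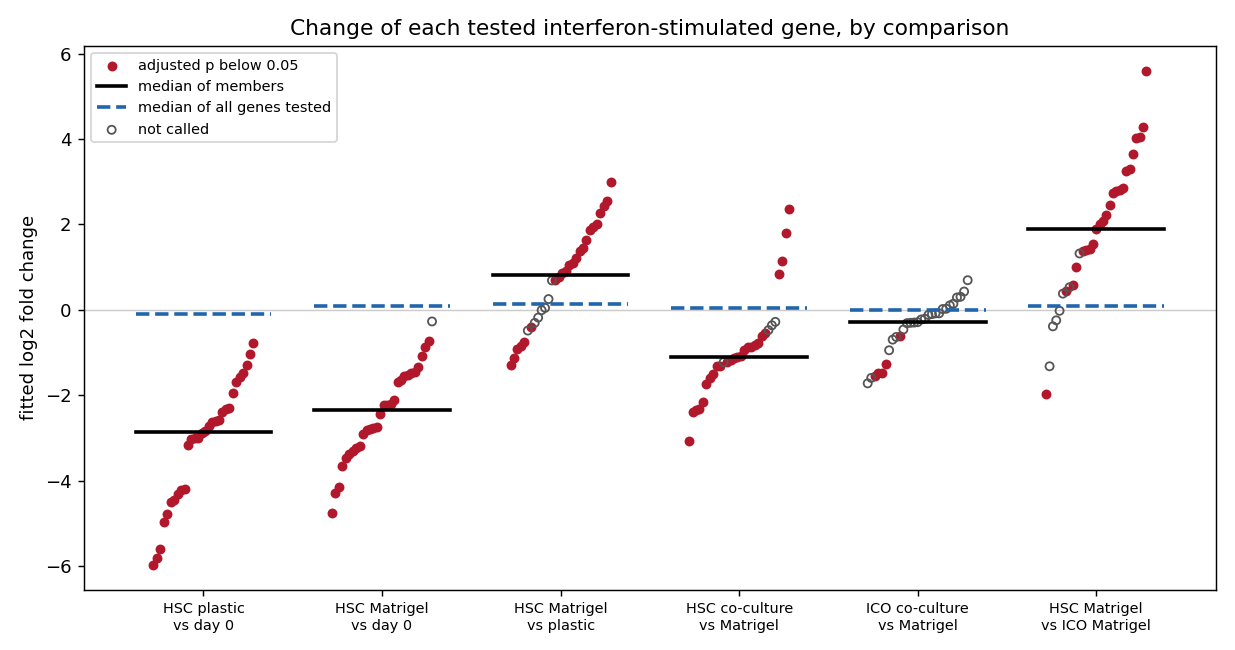
Fitted log2 fold change of each tested gene (points, sorted within a comparison) in 6 comparisons. Filled points passed an adjusted p of 0.05, black bars mark the median of the interferon-stimulated genes and dashed lines that of all genes tested, which stays between -0.10 and 0.14.

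In organoids, the share of these genes called with co-culture was 17.2%, near that of all genes, and every call was a decrease. Of 29 tested genes 5 fell in ICO of the co-culture against ICO in Matrigel alone, against 7.96% of all 13726 tested genes, and 0 rose, against 8.59% (called either way, 16.6%). At an unadjusted p below 0.05, 8 were lower and 2 higher, and DESeq2 called 5 lower and 0 higher. The median change was -0.29, against 0.00 over all genes. All 5 genes that fell were antiviral effectors. Rtp4 had 4.58, 2.21 and 2.30 CPM in ICO of the co-culture, against 8.91, 4.91 and 12.7 CPM in ICO in Matrigel alone, without overlap and with a change of -1.55 ± 0.36 (SE, adjusted p = 0.006). Oas1a, which makes the activator of RNase L, had 3.78, 1.38 and 0.999 CPM in co-culture and 5.99, 4.21 and 6.96 CPM alone, a change of -1.49 ± 0.42 (SE, adjusted p = 0.021). Bst2 had 16.1, 18.7 and 13.5 CPM in co-culture, against 25.1, 22.04 and 26.0 CPM alone, a change of -0.61 ± 0.16 (SE, adjusted p = 0.013). Ifit1 and Ifit2 lay under 5 CPM in both groups and changed by -1.26 (adjusted p = 0.0309) and -1.47 (adjusted p = 0.0233). In 8 genes, the 5 above with Zbp1, Gbp3 and Psmb8, all 3 co-culture libraries were below all 3 libraries of ICO alone, against 14.9% of all genes.

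The call of Rtp4 held under every alternative run for this comparison. Bst2 lost its call without ICO Matrigel replicate 1 (adjusted p = 0.0537) or ICO co-culture replicate 3 (0.0682), and Ifit2 without ICO Matrigel replicate 1 (0.149) or ICO co-culture replicate 1 (0.072) or 3 (0.072). Oas1a lost it without ICO Matrigel replicate 1 (0.0693) or 3 (0.0775) or ICO co-culture replicate 2 (0.0875) or 3 (0.0801), and Ifit1 without any 1 of the 3 ICO Matrigel libraries (0.0577, 0.0618 and 0.104) or without ICO co-culture replicate 2 (0.0893) or 3 (0.101). Irf1 had 164, 119 and 134 CPM in ICO of the co-culture and 118, 116 and 101 CPM in ICO alone, and its change of 0.31 ± 0.11 (SE, adjusted p = 0.0589) did not pass the threshold, except without ICO co-culture replicate 2 (0.0209) and with no low-count filter (0.0132). Psmb9 changed by 0.69 (adjusted p = 0.14), with an adjusted p of 0.0449 without ICO Matrigel replicate 3.

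The effect of co-culture in HSC was then tested against its effect in ICO, as an interaction in 1 fit of the 12 Matrigel libraries. The HSC effect was lower than the ICO effect in 10 of 31 genes, against 8.08% of all 16233 tested genes, and higher in 2, against 9.08% (called either way, 17.2%). The median difference was -0.59, against 0.01 over all genes. All 5 signalling and transcription factors were among the 10, with differences between -1.63 for Irf8 and -0.92 for Irf9. The others were Psmb9, Psmb8, Parp14, Ifih1 and Ifi35. Psmb9 had the largest difference, at -3.87 ± 0.50 (SE, adjusted p = 0.000339). Its effect was -3.08 in HSC and 0.69 in ICO, where it was not called. Parp14 differed by -2.18 ± 0.47 (SE, adjusted p = 0.0074) and Ifih1 by -1.80 ± 0.29 (SE, adjusted p = 0.00133). The 2 genes with a higher effect in HSC were Bst2, at 2.31 ± 0.26 (SE, adjusted p = 9.05e-05), and Zbp1, at 2.97 ± 0.55 (SE, adjusted p = 0.003). For Bst2 both effects were called and their signs differed, with 1.80 in HSC and -0.61 in ICO. For Ifit1, Ifit2, Oas1a and Rtp4, which fell in both cell types, the difference did not pass the threshold.

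Of the 12 differences 9 held under every alternative run for this comparison, among which the cholangiocyte share as a covariate was not. Stat2 lost its call without HSC Matrigel replicate 3 (adjusted p = 0.0504) or ICO co-culture replicate 1 (0.0503), and Irf9 without HSC Matrigel replicate 3 (0.0514) or ICO Matrigel replicate 1 (0.0559). Irf7 lost it without HSC Matrigel replicate 2 (0.0789) or 3 (0.0983), ICO Matrigel replicate 1 (0.0926) or 2 (0.103), HSC co-culture replicate 2 (0.0922) or 3 (0.0817), or ICO co-culture replicate 1 (0.117) or 3 (0.0988).

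**Figure D4:**
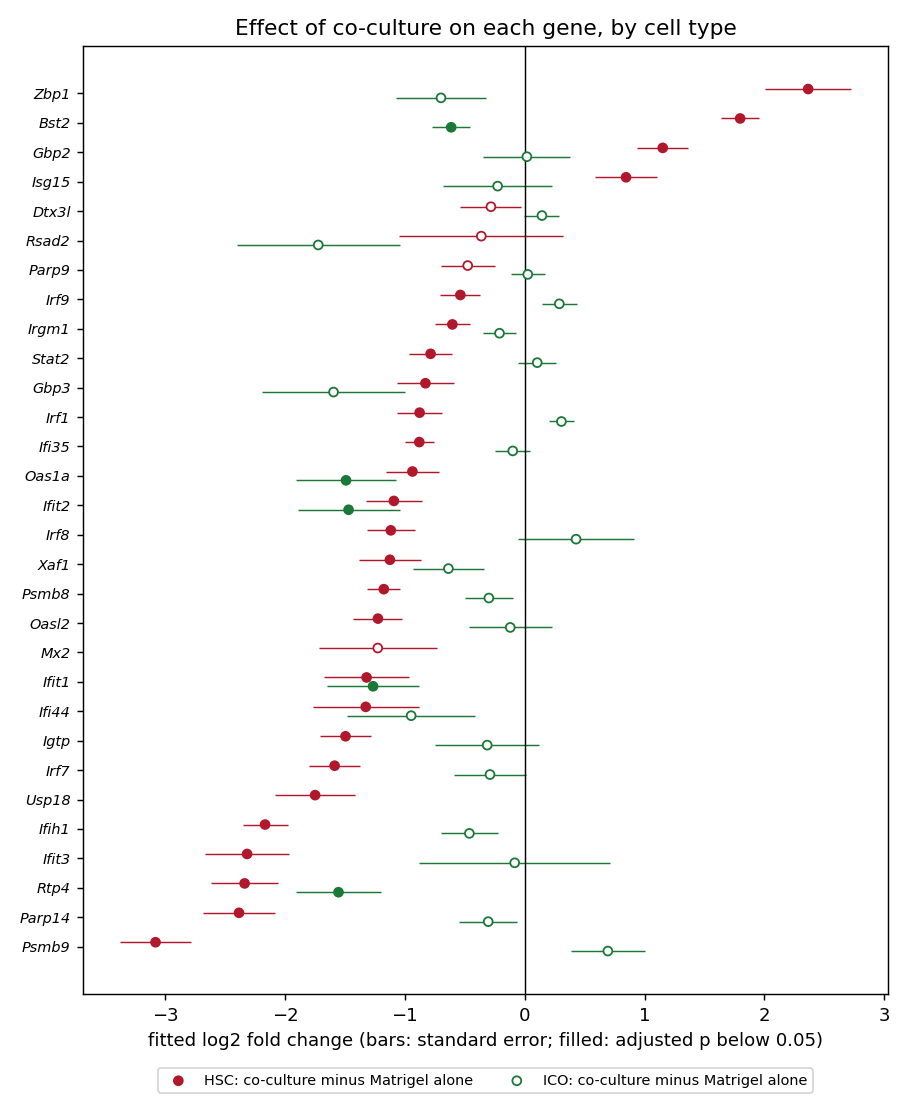
Fitted log2 fold change with co-culture for each gene (rows, sorted by the HSC effect) in HSC and in ICO, with bars for the standard error and filled points for adjusted p below 0.05. HSC effects run between -3.08 (Psmb9) and 2.36 (Zbp1), while ICO effects lie between -1.72 and 0.69 and 5 of them are called.

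Each alone in Matrigel, HSC held more of these transcripts than ICO. Of 31 genes 23 were higher in HSC, against 30.9% of all tested genes, and 1 was lower, against 25.8% (called either way, 56.7%). The median difference was 1.88, against 0.09 over all genes. Irf8 had 40.1, 36.3 and 63.9 CPM in HSC, against 0.784, 1.32 and 0.923 CPM in ICO, a log2 difference of 5.60 ± 0.29 (SE, adjusted p = 1.27e-08). Gbp3 had 20.7, 19.7 and 34.0 CPM in the HSC libraries, against 0.713, 1.17 and 2.18 CPM in the ICO libraries, a difference of 4.28 ± 0.40 (SE, adjusted p = 2.28e-06). Usp18 had 12.4, 18.2 and 25.5 CPM in the HSC libraries, against 0.499, 1.01 and 2.10 CPM in the ICO libraries, a difference of 4.05 ± 0.54 (SE, adjusted p = 4.46e-05). Psmb9 had 47.9, 53.7 and 80.6 CPM in HSC, against 3.78, 2.49 and 5.62 CPM in ICO, a difference of 4.02 ± 0.37 (SE, adjusted p = 2.94e-06). In none of these 4 did the cell types overlap. Zbp1 was the gene that was lower in HSC, with 0.735, 0.462 and 0.896 CPM in the HSC libraries, against 2.35, 3.27 and 3.19 CPM in the ICO libraries, a difference of -1.98 ± 0.41 (SE, adjusted p = 0.00127).

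Organoids alone averaged at least 10 CPM for 9 of the 31 genes, which were Stat2, Irf1, Irf9, Bst2, Ifi35, Parp9, Dtx3l, Irgm1 and Psmb8. Irf1 had 137 ± 19.3 CPM in HSC, against 111 ± 9.23 CPM in ICO (SD, n = 3 each), and its difference of 0.38 (adjusted p = 0.0548) did not pass the threshold. Over the alternatives its adjusted p was 0.0418 to 0.255, and it passed with RLE scaling (0.0478), the replicate block (0.0478), only the 6 libraries compared (0.0427) and without HSC Matrigel replicate 2 (0.0418). Parp9 and its partner, the ubiquitin ligase Dtx3l, had 23.6 ± 4.04 and 22.7 ± 2.42 CPM in HSC, against 29.6 ± 5.20 and 31.4 ± 4.30 CPM in ICO, and neither difference was called, although Dtx3l was with only the 6 libraries compared (0.0481). Bst2 differed by -0.02 (adjusted p = 0.921), and Rsad2, Mx1 and Ifi44 were not called either, except Ifi44 without HSC Matrigel replicate 1 (0.0474) or ICO Matrigel replicate 3 (0.0241). Of the 24 calls 20 held under every alternative run for this comparison, and Irf9, Ifit1, Oas1a and Irgm1 lost theirs under some. Ifit1 had an adjusted p of 0.0711 without HSC Matrigel replicate 3 and of 0.0547 without ICO Matrigel replicate 1, Irgm1 had 0.0578 and 0.055 without the same libraries, and Oas1a had 0.0537 without ICO Matrigel replicate 2. Irf9 had 0.131 with no low-count filter, 0.0575 by DESeq2, 0.0876 with only the 6 libraries compared, 0.113 and 0.185 without HSC Matrigel replicates 2 and 3, and 0.18 and 0.11 without ICO Matrigel replicates 1 and 2. The HSC libraries of this comparison carried the cholangiocyte shares of 3.63% to 31.4% given above. The 18 macrophage markers summed to 2740 to 3563 CPM in HSC and 534 to 559.99 CPM in ICO, and 14 of the 15 tested were higher in HSC and 1 was lower. Nearly all of the sum in ICO was Cd14, at 496 to 547 CPM, against 58.7 to 201 CPM in HSC. Csf1r was at 94.2 to 109 CPM in HSC and 6.12 to 10.5 CPM in ICO. Of 5 plasmacytoid dendritic cell markers, summing to 139 to 201 CPM in HSC and 15.01 to 17.1 CPM in ICO, the 2 tested were higher in HSC. Nearly all of this sum was Tcf4, at 137 to 199.7 CPM in HSC and 14.7 to 17.0 CPM in ICO. Siglech was at 0.201 to 0.264 CPM in HSC, and Klk1 was at 0 in both, so the sum does not show that such cells were present. The part of other cell types in the difference was not tested.

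Upstream of these genes, transcripts of the 8 listed interferon ligands were close to absent at this depth. None of the 8 had enough counts to be tested. Of the interferon alpha genes only Ifna2 and Ifna4 were listed, and the others were not examined. Ifng, which encodes interferon gamma, had 14 counts in all, spread over the 3 day 0 HSC libraries at 0.272 to 0.412 CPM, and 0 in every other library. Ifnb1 had 5 counts, all in 2 libraries of HSC in Matrigel alone, and Ifna4 had 4, all on day 0. Ifnk had 12 counts over 5 groups, Ifna2 and Ifnl3 had 1 each, and Ifne and Ifnl2 had 0. A count of 0 allows up to 3 counts, which is 0.144 to 0.384 CPM by library and covers counting error only. Markers of lymphocytes, known producers of interferon gamma, summed to 3.14 to 5.83 CPM on day 0 and to at most 1.58 CPM in the other groups.

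Transcripts of both type I receptor chains were detected in every group of HSC. Ifnar1 had 88.4 to 105 CPM in HSC of the co-culture, 96.9 to 109 CPM in Matrigel alone, 90.9 to 104 CPM on plastic and 86.2 to 108 CPM on day 0, and none of the 4 comparisons among HSC called it. Ifnar2, the other chain of the type I receptor, had 121 to 179 CPM in co-culture, 190.5 to 282 CPM in Matrigel alone, 68.4 to 106 CPM on plastic and 371 to 380.0 CPM on day 0. It fell by 2.02 on plastic and by 0.75 in Matrigel alone against day 0 (log2, adjusted p = 2.62e-06 and 0.00954), and the Matrigel call was lost with the cholangiocyte share as a covariate (0.0864). Ifngr1 and Ifngr2, the type II receptor chains, were lower in HSC than in ICO, at 123 to 221 and 62.2 to 90.9 CPM in HSC in Matrigel alone and 399.6 to 457 and 124 to 127 CPM in ICO alone. Ifnlr1, the type III receptor chain, had 0.168 to 2.94 CPM in HSC alone and 7.63 to 14.3 CPM in ICO alone, a difference of -2.68 ± 0.69 (SE, adjusted p = 0.00651). In HSC in Matrigel alone Ifnlr1 had 2.94, 1.58 and 0.168 CPM in replicates 1 to 3, whose cholangiocyte shares were 31.4%, 13.4% and 3.63%. In HSC of the co-culture it had 4.99, 2.90 and 9.79 CPM in replicates 1 to 3. It had 0.0961 to 0.396 CPM on plastic and 0 to 0.272 CPM on day 0. The part of organoid transcripts in these Ifnlr1 levels was not tested. Il10rb, which pairs with Ifnlr1, had 65.8 to 87.5 CPM in HSC of the co-culture and 128 to 170.2 CPM in Matrigel alone, a change of -0.81 ± 0.14 (SE, adjusted p = 0.000647).

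The feedback inhibitors Socs1 and Socs3 fell on plastic by 3.81 and 3.44 against day 0 (adjusted p = 1.35e-05 and 1.41e-07), and neither was called between co-cultured HSC and HSC in Matrigel alone.

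The wider pathway list held 77 genes found in the table, of which 67 were tested among HSC. On plastic against day 0, 52 fell and 2 rose, against 30.5% and 27.5% of all tested genes. In Matrigel alone against day 0, 44 fell and 2 rose, against 21.5% and 19.3% of all genes. In Matrigel alone against plastic, 34 rose and 7 fell, against 29.9% and 25.2%. In co-culture against Matrigel alone, 33 fell and 4 rose, against 13.8% and 17.3%. In ICO 5 of 55 tested fell and 4 rose with co-culture, which is near the 7.96% and 8.59% of all genes. Of the 42 further interferon targets in the list, 24 of 41 tested fell and 2 rose in co-cultured HSC, against the same shares, with a median change of -1.30. Oas2, an oligoadenylate synthetase, had 0, 0.879 and 1.47 CPM in co-culture and 7.89, 6.53 and 10.8 CPM in Matrigel alone, a change of -3.19 ± 0.44 (SE, adjusted p = 0.000142). Ifi27l2a had 3.58, 5.12 and 6.08 CPM in co-culture and 27.9, 22.9 and 64.0 CPM in Matrigel alone, a change of -2.89 ± 0.42 (SE, adjusted p = 0.000481). Tgtp2, a GTPase of the same family as Irgm1 and Igtp, had 5.63, 6.83 and 3.39 CPM in co-culture and 26.9, 28.3 and 50.6 CPM in Matrigel alone, a change of -2.70 ± 0.28 (SE, adjusted p = 1.64e-05). The exonuclease Isg20 rose by 1.07 ± 0.22 (SE, adjusted p = 0.0023). It had 11.4, 11.4 and 18.4 CPM in co-cultured HSC, and 25.8, 20.7 and 17.4 CPM in ICO of the co-culture. The part of organoid transcripts in this rise was not tested. Ifi27 changed by 0.42 (adjusted p = 0.042), a call that was lost in 8 alternatives.

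Cxcl9, Cxcl10 and Cxcl11 encode chemokines that recruit Cxcr3-bearing lymphocytes. Cxcl11 had too few counts to be tested, with 0 to 0.512 CPM in co-culture, 0.224 to 0.401 CPM in Matrigel alone, 0.048 to 0.12 CPM on plastic and 0.755 to 1.88 CPM on day 0. Cxcl10 had 4.69, 3.41 and 2.77 CPM on plastic and 10.7, 7.78 and 17.6 CPM in Matrigel alone, against 708, 684 and 731 CPM on day 0. Its change on plastic was -7.55 ± 0.51 (SE, adjusted p = 4.31e-07). In co-culture it had 0.64, 3.67 and 1.02 CPM, a change against Matrigel alone of -2.56 ± 0.48 (SE, adjusted p = 0.00224). Cxcl9 had no count in any co-culture or plastic library, against 23.2, 20.8 and 25.1 CPM on day 0. Ifitm1, which blocks viral entry, had 6.80, 4.32 and 0.902 CPM on plastic and 1229, 1209 and 1296 CPM on day 0, a change of -8.22 ± 0.61 (SE, adjusted p = 1.04e-06). Among the 14 sensors and adaptors, of which 13 were tested, 6 fell and 1 rose in co-cultured HSC, against 13.8% and 17.3% of all genes. The gene that rose was Sting1, at 0.61 (adjusted p = 0.0071), a call lost with only the 6 libraries compared, and Tlr7, a sensor found in macrophages and dendritic cells, had 0 to 0.576 CPM in co-culture and 4.15 to 8.57 CPM in Matrigel alone.

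**Figure D5:**
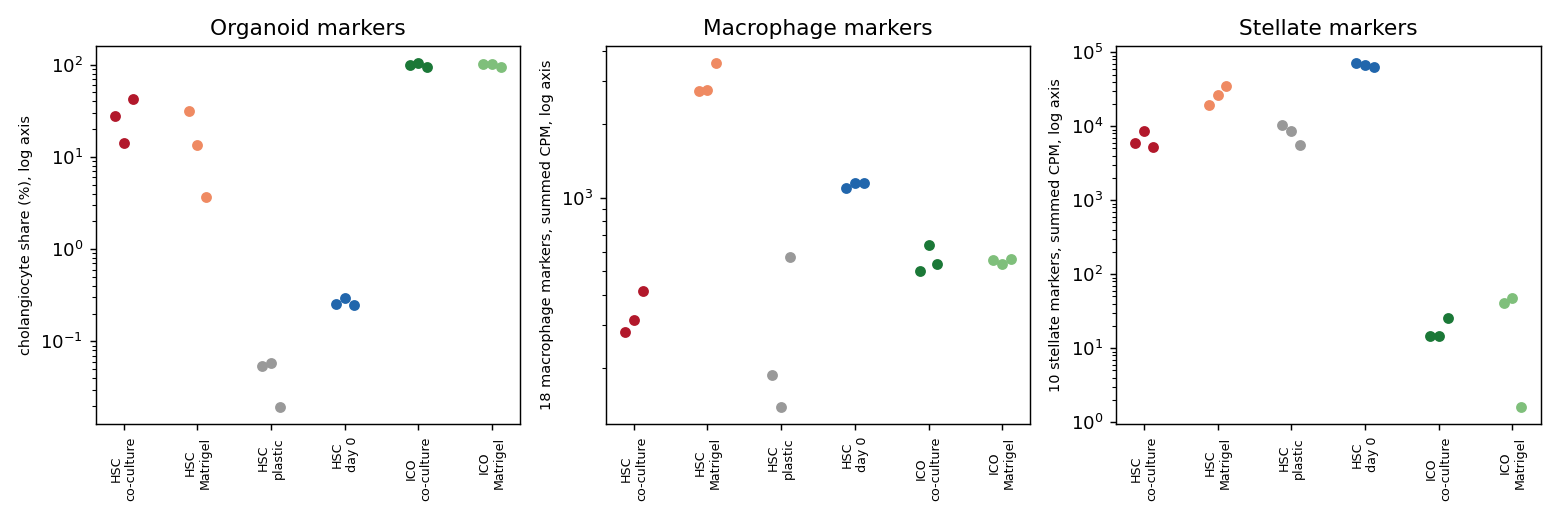
Cholangiocyte share (percent), summed level of 18 macrophage markers and summed level of 10 stellate markers (CPM), each on a log axis, in every library (points). Macrophage markers are at 281 to 415 CPM in HSC of the co-culture and at 2740 to 3563 CPM in HSC in Matrigel alone, and the cholangiocyte shares of these groups overlap.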

How the data were processed

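The table the authors deposited holds estimated counts, a value for each gene in each library that can be fractional. Per the submitters' processing notes, the tools kallisto 0.46.1 and DESeq2 1.36.0 and the build GRCm39 were used, with no role given for any. The annotation release, transcript summing and filters: not given in the sources used here. Matrigel cultures were sorted on day 7, per the series' design text. A symbol on several rows (43 cases) stayed with the row of highest total. Members of the Ifit, Oas1, Mx and Gbp families resemble each other closely, and the authors' counting may have split their reads, so single values of these genes are uncertain.

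Counts were rounded before testing. Every comparison was fitted over all genes by quasi-likelihood in edgeR 4.0.16 (R 4.3.3), with robust fitting, TMM factors and the package's own expression filter, and called at a Benjamini-Hochberg adjusted p below 0.05. The fits held the 12 HSC, the 6 ICO or the 12 Matrigel libraries. Comparisons with day 0, or with HSC in Matrigel alone, share those libraries. Levels are given as CPM, scaled with TMM factors of the 18 libraries together, with SD after ±. The standard error (SE) is the size of the log2 change over the root of its F statistic. The procedure was also run on simulated data in which few genes changed, unlike the comparisons here, and no result rests on that run. Libraries of a group differed beyond sampling noise, with a chi-square per gene of 5.9 to 72.

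The members, the pathway and marker lists and the tests were chosen with earlier results of these data known. Values per library are given for the called members with the 4 largest increases and 4 largest decreases of a comparison among those with a mean of at least 5 CPM in 1 group. The settings varied were RLE factors, unfiltered genes, DESeq2 1.42.0, a replicate block, the cholangiocyte share as a covariate, a fit of only the 6 libraries compared, and leaving out each library. The covariate was run for the 3 comparisons that set HSC in Matrigel against other HSC, and the fit of 6 libraries for those among HSC and for HSC against ICO. Promoter sequences are RefSeq's. A gene of the wider pathway list is not reported here.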

Additional observations from a re-analysis of the deposited data

Results flagged for a closer look

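The effect of co-culture differed between HSC and ICO, by the interaction test, in 12 of the 31 genes, and each is listed for that reason. The log2 difference, HSC effect minus ICO effect, was positive for Zbp1 (2.97) and Bst2 (2.31). It was negative for Psmb9 (-3.87), Parp14 (-2.18), Ifih1 (-1.80), Irf8 (-1.63), Irf7 (-1.37), Irf1 (-1.28), Stat2 (-0.98), Psmb8 (-0.97), Irf9 (-0.92) and Ifi35 (-0.87). Of these genes, Bst2 is the one called in both cell types, with opposite signs. The HSC libraries carried cholangiocyte shares of 13.97% to 42.1% in co-culture and 3.63% to 31.4% in Matrigel alone, and the part of these transcripts in the differences was not tested. No group had the 4 libraries that a check for a single outlying library needs.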

How the results depend on the processing

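No called gene changed sign under any alternative. Genes that were not called did so 44 times, with adjusted p of at least 0.436 there. With the cholangiocyte share as a covariate the log2 change was Psmb9 0.084 in Matrigel alone against day 0, Irf9 0.12 in Matrigel alone against plastic, Ifi44 0.11 in Matrigel alone against plastic and Igtp 0.17 in Matrigel alone against plastic. With only the 6 libraries compared the log2 change was Irf9 0.021 in Matrigel alone against plastic. Leaving out 1 library gave log2 changes in Matrigel alone against plastic of -0.11 to 0.10 (Ifi35), -0.51 to 0.0056 (Igtp) and -0.19 to 0.12 (Irf9); in HSC co-culture of -0.76 to 0.69 (Rsad2); in ICO co-culture of -0.20 to 0.56 (Gbp2), -0.16 to 0.029 (Ifi35), -0.51 to 1.00 (Ifit3), -0.68 to 0.42 (Igtp), -0.46 to 0.11 (Isg15), -0.40 to 0.19 (Mx1), -0.59 to 0.15 (Oasl2) and -0.097 to 0.16 (Parp9); in HSC against ICO of -0.57 to 0.93 (Rsad2); in the interaction of -0.63 to 0.15 (Ifit1), -0.12 to 0.49 (Ifit2), -1.64 to 0.65 (Mx1), -0.92 to 0.30 (Mx2) and -0.94 to 0.29 (Usp18). Among the 31 genes, called genes kept their call in every alternative run for the comparison for 30 of 30 on plastic against day 0, 29 of 29 in Matrigel alone against day 0, 16 of 23 in Matrigel alone against plastic, 21 of 26 in HSC co-culture, 1 of 5 in ICO co-culture, 20 of 24 for HSC against ICO and 9 of 12 for the interaction. With the cholangiocyte share as a covariate 3 genes, not 6, fell in Matrigel alone against plastic. With only the 6 libraries compared, the genes called in HSC co-culture numbered 3453 of all genes, against 5290, the members lower in HSC than in ICO were 2, against 1, and pathway genes higher were 4 on plastic and 4 in Matrigel alone against day 0 (2 each) and 2 in HSC co-culture (4). With no low-count filter 1 member rose in ICO co-culture, against 0, and 0 pathway genes had a higher interaction, against 1. Pathway genes higher in Matrigel alone against day 0 were 1, against 2, with RLE scaling, no filter, DESeq2, the replicate block or the covariate, and 0 to 1 leaving out 1 library. Leaving out 1 library gave, for ICO co-culture, 1 to 5 members lower (5), 0 to 1 higher (0), 2 to 6 pathway genes higher (4), 3 to 5 lower (5) and 1427 to 1948 of all genes (2272). It gave 18 to 23 members lower (22) and 3 to 4 higher (4) in HSC co-culture, and for the interaction 7 to 13 pathway genes lower (11) and 0 to 1 higher (1). The deviations of same-numbered libraries correlated at -0.392 to 0.1004, and no comparison had every library closest to its own number. With so few libraries per group, these correlations cannot exclude that equal numbers pair the libraries. The titles of co-cultured HSC and ICO carry the same letter and numbers, and their deviations correlated at -0.043 to 0.061. Whether equal numbers there mark the same culture is not stated. The replicate block gave 4 members higher and 21 lower in HSC co-culture, 16 and 6 in Matrigel alone against plastic, and 0 and 5 in ICO co-culture. Depth limits the ligands, Mx1, Rsad2 and Zbp1, whose libraries hold few counts.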
